A study of Bos taurus with 12 samples.

Results

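The genes described here are those whose symbol marks them as a splicing factor or an RNA helicase of the DDX or DHX type. All probe sets of the Affymetrix Bovine Genome Array whose annotated gene symbol begins with SRSF, SFRS, HNRNP, HNRP, SF3A, SF3B, SNRP, PRPF, DDX or DHX were taken, which gave 136 of the 24016 probe sets that are not array controls. Of these, 134 carried 1 symbol and stood for 93 of the 9155 genes named on the array, and 2 carried the symbol pair SNRPF and AMDHD1 and are counted but not assigned to either gene. The rule itself uses no measured value.

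The samples were endometrial cells of cyclic, estrus-synchronised Simmental heifers, brushed from the uterine wall early in a cycle, on days 3 and 7. The same heifers may have been brushed on both days, and the sources used here do not tie animals to pools. In the following cycle each animal received an in vitro-produced blastocyst, and animals in which an embryo was seen on day 28 were assigned afterwards to high receptivity (HR), those without one to low receptivity (LR). The 4 groups are therefore HR3, LR3, HR7 and LR7, with 3 arrays each and 12 in all. No embryo was present at sampling, no further treatment or genotype separates the groups, and the ages of the heifers are not given in the sources used here. Each array held the RNA of a pool of 5 endometrial samples, so that the spread between arrays is a spread between pools, and every p-value below measures a difference against that spread. The values are log2 signals, and a difference of 1 is a doubling of the signal.

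Pre-mRNA splicing removes introns in a stepwise assembly. The U1 snRNP recognises the start of the intron and the U2 snRNP, with its SF3a and SF3b subunits, the branch site near its end. The tri-snRNP, which contains several PRPF proteins, then joins, and DEAD-box (DDX) and DEAH-box (DHX) helicases use ATP to drive the rearrangements between these steps. SR proteins bind mainly exons and favour their inclusion, whereas many hnRNP proteins act in the opposite sense. Other members of the DDX and DHX families assemble ribosomes, export and translate mRNA, or detect viral RNA. In the uterus, these days of the cycle are those in which progesterone from the young corpus luteum rises.

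A probe set was tested where its mean over the 12 arrays was at least 6.71, the median of the array medians. This held for 103 of the 136 probe sets (85 genes) and for 11980 of all 24016. A probe set is called where limma's p-value, adjusted by the Benjamini-Hochberg method over all 11980, was below 0.05. In counts of probe sets or genes, fell and rose mean called as lower or as higher at day 7. Where a gene has several probe sets, the brightest stands for it. Probe sets are ordered by signal only to choose the one that stands for a gene and to list those of a gene, since signals of different probe sets are not comparable as transcript levels.

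Of 10 marker lists examined, that of uterine epithelium was present on every array, with a log2 sum of 6 genes between 14.21 and 14.71, and no marker of any list was at 0. None of the markers of smooth muscle, endothelium and red blood cells passed the level filter described above, and neither of the 2 tested B and plasma cell markers was called, although their LR3 pools spread widely (log2 sums of 8.90 to 11.23, against 8.28 to 9.49 in LR7). Several other lists changed with the day. All 3 tested neutrophil markers, S100A8, S100A9 and S100A12, rose by day 7. The log2 sum of the list was 8.34 to 8.87 (HR3), 8.89 to 10.0 (LR3), 12.75 to 13.64 (HR7) and 11.79 to 12.51 (LR7). Its remaining marker, CXCR1, was below the level filter and changed by 2.24 in HR and by 0.12 in LR. Of 3 tested macrophage markers 2 rose, and the sums were 9.58 to 9.71 (HR3), 9.05 to 10.03 (LR3), 10.6 to 11.39 (HR7) and 10.3 to 10.77 (LR7). All 3 tested markers of T and NK cells fell over both groups (sums of 9.72 to 10.0, 9.74 to 10.39, 8.66 to 9.54 and 8.87 to 9.81 in the same order), as did 3 of 9 stromal markers (13.54 to 13.93, 12.52 to 13.64, 11.87 to 13.87 and 12.02 to 13.27) and 2 of 5 tested epithelial ones (14.51 to 14.67, 14.48 to 14.55, 14.43 to 14.71 and 14.21 to 14.38). Among 8 tested genes of dividing cells 6 fell and 1, CCNB1, rose, with sums of 12.09 to 12.69 (HR3), 12.14 to 12.72 (LR3), 11.67 to 11.83 (HR7) and 11.73 to 12.22 (LR7). The part of these shifts in the changes by day given below was not tested, and in brushed tissue fewer cells of a type and less RNA per cell cannot be told apart.

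The question of the day comparison is how these genes moved between day 3 and day 7. With HR and LR combined, 30 of the 103 tested probe sets fell and 5 rose. Over all 11980 probe sets, 44.7% were called, 20.6% higher and 24.1% lower at day 7. The splicing and helicase probe sets thus fell at a share of 29.1%, near that background, and rose at 4.85%, which is below it. Their median change was -0.11, against -0.04 for all tested probe sets, and 71 of the 103 differences lay below 0. The share of all tested probe sets below 0 was not counted. The changes were modest, from -1.07 for DDX46 to 0.58 for a probe set of SRSF1. All 6 arrays of day 3 and all 6 of day 7 were separated without overlap for 16 of the 103, a share of 15.5% (21.9% of all tested), and for 14 of these every day 3 array was the higher one, 13.6% against 10.8% of all tested.

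Centring each array on its median left 27 lower and 9 higher, so that the higher share of the calls depended on the scaling. Without a filter on level, 30 of all 136 probe sets were called, where 26.5% of all 24016 were.

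**Figure D1:**
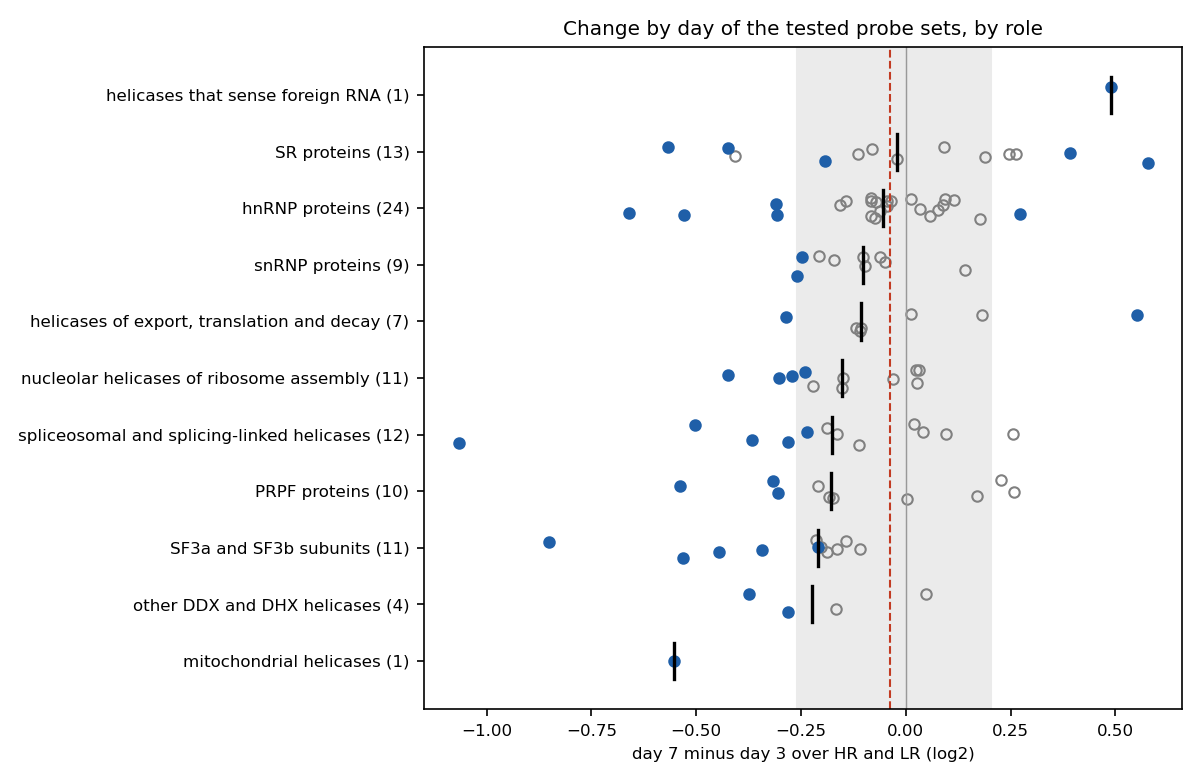
Change of each tested probe set from day 3 to day 7, HR and LR combined (log2, horizontal axis), in rows by the role of the protein with the number of tested probe sets in parentheses. Filled points were called and open ones not, black ticks are row medians, and the dashed line and grey band are the median (-0.04) and quartiles (-0.26 and 0.20) of all 11980 tested probe sets. Every one of the 11 SF3a and SF3b probe sets lies below 0, whereas those of the SR proteins spread to both sides.

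For every role group below, the background is that 24.1% of all tested probe sets were called lower and 20.6% higher. The groups are small, and their shares were not tested against it. The SR proteins moved in both directions. Of 13 tested probe sets 3 fell and 2 rose, and their median was -0.02. SRSF6, which binds exonic splicing enhancers, fell the most. Its signals were 11.52, 11.32 and 11.47 (HR3), 11.15, 11.51 and 11.16 (LR3), 11.13, 10.50 and 10.85 (HR7) and 10.53, 11.00 and 10.72 (LR7). All day 3 arrays lay above all day 7 arrays, although the margin was only that between the lowest LR3 pool and the highest HR7 pool. The change over both was -0.57 ± 0.12 (SE, adjusted p = 0.00316), and it passed the test in HR (-0.61) and in LR (-0.52) separately. SRSF7, a shuttling SR protein that also serves mRNA export, fell by 0.42 on the log2 scale over both (adjusted p = 0.00251), with a change of -0.60 in HR that passed (adjusted p = 0.00577) and of -0.25 in LR that did not (adjusted p = 0.156). SRSF3 fell slightly, by 0.19.

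SRSF9 rose and is the SR protein with the largest rise among probe sets that stand for their gene. It read 11.30, 11.27 and 11.38 (HR3), 11.04, 11.32 and 11.18 (LR3), 11.71, 11.56 and 11.54 (HR7) and 11.61, 11.87 and 11.56 (LR7). No day 3 array reached a day 7 array. The change was 0.39 ± 0.08 over both (SE, adjusted p = 0.00209), 0.50 in LR, where it passed (adjusted p = 0.00818), and 0.29 in HR, where it did not (adjusted p = 0.0802). SRSF4, SRSF5, SRSF10 and SRSF11 were not called, with changes over both between -0.12 and 0.25. Nor was SFRS18, at -0.41 on its brighter probe set (adjusted p = 0.0715) and 0.09 on the other.

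Among the hnRNP proteins, which package nascent transcripts, 4 of 24 tested probe sets fell and 1 rose, and 19 were not called. The median was -0.05. The falls were led by HNRNPA0, a protein that binds AU-rich elements of mRNAs and is the member with the lowest p-value. Its brightest probe set read 10.26, 10.44 and 10.21 (HR3), 10.17, 10.40 and 10.13 (LR3), 9.45, 9.42 and 9.63 (HR7) and 9.69, 9.65 and 9.81 (LR7). The days did not overlap, and at day 7 the HR pools were all below the LR pools. The change was -0.66 ± 0.08 over both (SE, adjusted p = 7.93e-05), or 1.58-fold, with -0.80 in HR (adjusted p = 0.000656) and -0.52 in LR (adjusted p = 0.00641). The other tested HNRNPA0 probe set fell as well, by 0.53 (adjusted p = 0.000621), again without overlap of the days.

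HNRNPH3 and HNRNPM, both regulators of exon choice, fell by 0.31 each over both groups, and each passed in HR but not in LR. The abundant core hnRNPs showed small differences that were not called: HNRNPC -0.04, HNRNPD -0.08, HNRNPU -0.07 and HNRNPR -0.08 over both. The largest positive change of a probe set that stands for its gene was 0.18 ± 0.09 for HNRNPH2 (SE, adjusted p = 0.117), which did not pass. The 1 probe set that rose belongs to HNRNPLL and is not the brightest of that gene. It changed by 0.27 (adjusted p = 0.0348), whereas the other 2 HNRNPLL probe sets, at 0.09 and -0.07, were not called.

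The snRNP proteins form the Sm ring around spliceosomal RNAs or bind U1 and U2 specifically. Of 9 tested probe sets 2 fell, none rose, and 8 of the 9 differences were below 0 (median -0.10). SNRPD2, an Sm ring protein, fell by 0.26 over both (adjusted p = 0.0114). It passed in LR (-0.34, adjusted p = 0.0288) and not in HR (-0.18, adjusted p = 0.20). SNRPA1, a protein of the U2 snRNP, fell by 0.25 with no overlap between days. SNRPC, of the U1 snRNP, had the largest positive difference at 0.14 ± 0.08 (SE, adjusted p = 0.154) and was not called.

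The SF3a and SF3b subunits, which hold the U2 snRNP at the branch site, shared 1 direction. All 11 tested probe sets lay below 0 over both groups, 5 fell and none rose, with a median of -0.21. SF3B5, a small SF3b subunit, read 9.57, 9.66 and 9.42 (HR3), 9.48, 9.96 and 9.62 (LR3), 9.07, 9.07 and 9.16 (HR7) and 9.27, 9.13 and 9.34 (LR7). The days did not overlap. The change was -0.45 ± 0.09 over both (SE, adjusted p = 0.00210) and passed in HR (-0.45) and in LR (-0.44). SF3A3, a subunit of SF3a, fell by 0.34 without overlap of the days, and SF3B2 fell by 0.21. SF3A1, SF3A2, SF3B3, SF3B4 and SF3B6 ranged from -0.21 to -0.11 and were not called.

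SF3B1, the largest SF3b subunit and the one that grips the branch helix, has 4 probe sets. The brightest changed by -0.20 ± 0.08 over both (SE, adjusted p = 0.0731) and was not called. The next read 10.84, 10.72 and 10.61 (HR3), 10.67, 10.68 and 10.42 (LR3), 10.29, 10.10 and 10.17 (HR7) and 9.87, 10.33 and 9.99 (LR7), a fall of 0.53 (adjusted p = 0.000931) with separate days. The third fell by 0.85 (adjusted p = 0.0202) with a spread at day 7 of 0.68 (SD) in HR and 0.75 in LR. The last was below the level filter and changed by -0.33. All 4 were lower at day 7 in HR and in LR, and they differed in size.

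Among the PRPF proteins 3 of 10 tested probe sets fell, near the 24.1% of all tested, and none rose (median -0.18). PRPF6, which bridges U5 and U4/U6 in the tri-snRNP, fell by 0.32 (adjusted p = 0.00722) with no overlap of the days. PRPF3, a U4/U6 protein, fell by 0.30 (adjusted p = 0.0237). PRPF38B fell by 0.54 on its brightest probe set (adjusted p = 0.0171), whereas its other tested probe set changed by 0.17 (adjusted p = 0.206), so that the direction for this gene depends on the probe set. PRPF8, the scaffold of the catalytic centre, changed by -0.21 (adjusted p = 0.0602), and PRPF4 by 0.26 (adjusted p = 0.0872). Neither was called.

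The helicases of the spliceosome and of splicing-linked steps included the member with the largest change, DDX46. This enzyme, the counterpart of yeast Prp5, acts as the U2 snRNP joins the branch site, and the study also measured its transcript by quantitative PCR. The primers of that assay are shown to identify it, and its values were not used here. They are printed 5′ to 3′ with the last 5 bases of the 3′ end, from which extension starts, in capitals.
DDX46 forward: aagcagggatagagaCAGGA
DDX46 reverse: tcttcttcgttctcgacTTCTA
The forward primer has 20 bases and the reverse 22. Other nucleotide or protein sequences of the members were not used here.

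On the arrays, DDX46 read 9.74, 9.70 and 9.58 (HR3), 10.23, 10.07 and 9.82 (LR3), 8.06, 8.96 and 9.38 (HR7) and 8.49, 8.23 and 9.62 (LR7). The day 3 arrays were close together, whereas the day 7 arrays spread over more than 1 log2 unit in each group and the highest LR7 pool lay above the lowest HR3 pool. The change was -1.07 ± 0.25 over both (SE, adjusted p = 0.00531), or 2.09-fold. It passed in LR (-1.26, adjusted p = 0.0234) and not in HR (-0.87, adjusted p = 0.0926).

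HR7 pool 1, LR7 pool 1 and LR7 pool 2 were the 3 lowest arrays for DDX46. They were also the 3 lowest for the third of the SF3B1 probe sets (6.67, 6.42 and 6.93, with the other 9 arrays between 7.57 and 8.40) and for the brightest PRPF38B probe set (8.92, 9.11 and 9.15, with the others between 9.50 and 10.27). The brightest SFRS18 probe set had them lowest too (8.60, 8.60 and 8.69, with the others between 9.13 and 9.65). In all, these 3 arrays were the lowest for 11 of the 136 probe sets (8.09%), DDX46 included, and for 1.89% of all 24016. The pattern was seen after the values had been inspected and was given no test. The probe sequences were not used here, so which part of its transcript each of these probe sets reads is uncertain, and the size of the DDX46 change is that of 1 such probe set.

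Of the 12 tested probe sets in this helicase group 5 fell and none rose (median -0.18). DHX35, a helicase found in catalytically active spliceosomes, read 7.70, 7.58 and 7.77 (HR3), 7.74, 7.70 and 7.64 (LR3), 7.42, 7.11 and 7.14 (HR7) and 7.10, 7.13 and 7.21 (LR7). The days were separate. The change was -0.50 ± 0.07 over both (SE, adjusted p = 0.000294), -0.46 in HR and -0.55 in LR, and both passed. DDX20, or gemin 3, belongs to the SMN complex that loads Sm proteins onto snRNAs. It read 9.14, 9.11 and 9.18 (HR3), 9.06, 9.28 and 9.04 (LR3), 8.68, 8.70 and 8.80 (HR7) and 8.72, 8.81 and 8.90 (LR7). It fell by 0.37 over both (adjusted p = 0.00131) and passed in HR (-0.42) and in LR (-0.32), with separate days. The other DDX20 probe set, below the level filter, went the other way, by 0.03 in HR and 0.42 in LR.

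DDX23, which releases U1 from the start of the intron, fell by 0.28, and DHX16, which activates the spliceosome for catalysis, by 0.23. The brightest probe sets of DDX5 (0.04) and DDX17 (-0.16), a pair of paralogs with roles in transcription and splicing, were not called. Nor were those of DHX15 (-0.19), DHX38 (-0.11), DHX8 (0.10) and DDX39B (0.26).

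**Figure D2:**
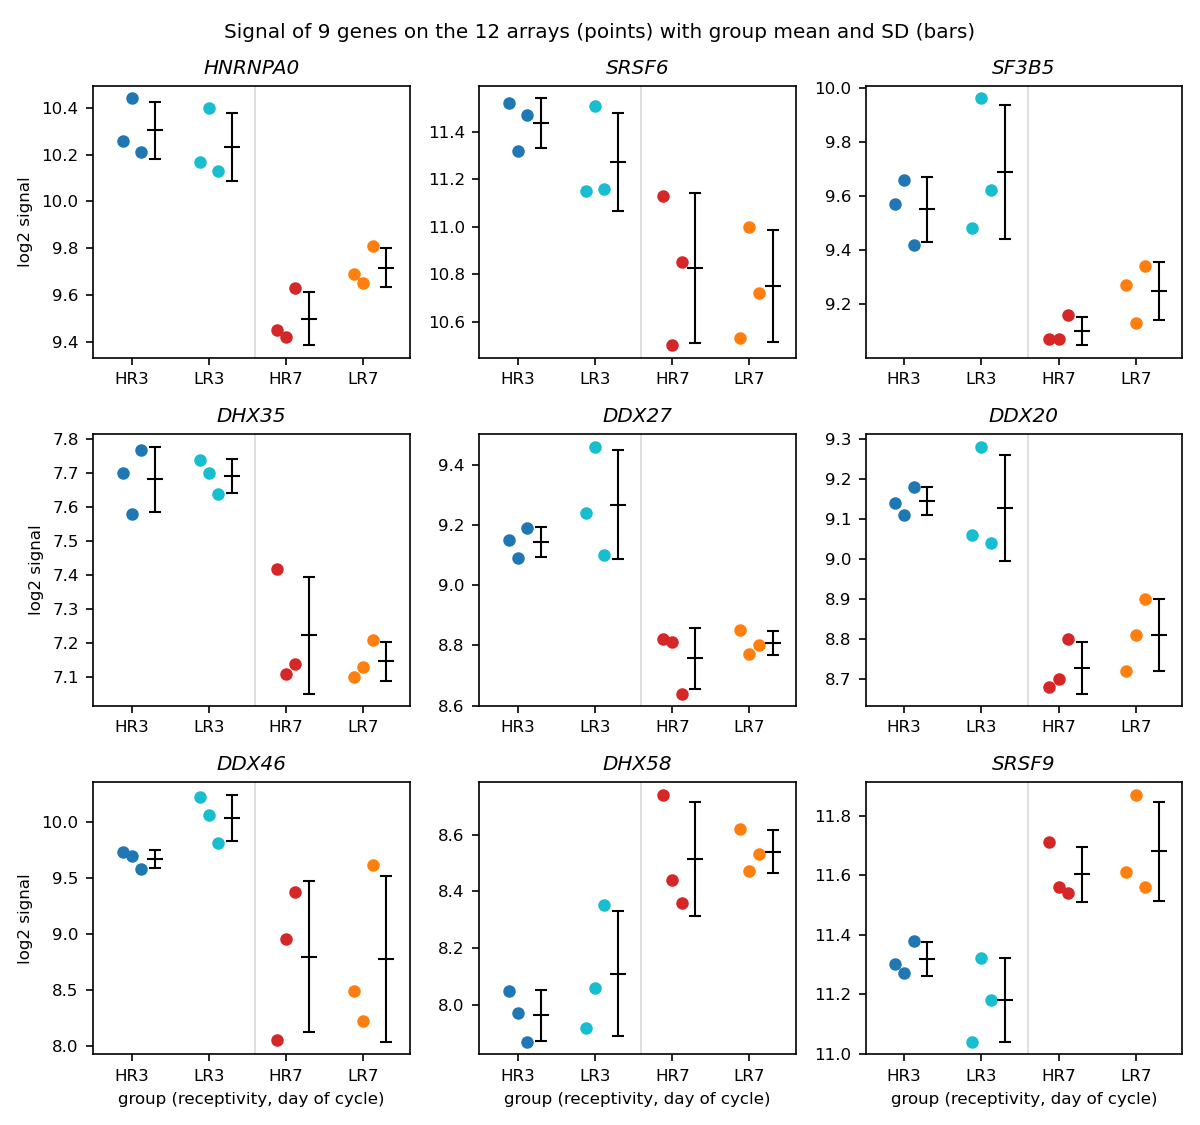
Log2 signal of 9 genes (vertical axes, scaled for each gene and not starting at 0) on each of the 12 arrays, by group, with the group mean and SD beside the points. Day 3 and day 7 are separate in every panel except DDX46, in which LR7 reaches 9.62 and HR3 9.58, and the direction is upward only for DHX58 and SRSF9.

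Nucleolar helicases unwind pre-ribosomal RNA. Of 11 tested probe sets 4 fell and none rose, with a median of -0.15. DDX27, which is needed for the processing of the large-subunit RNA, read 9.15, 9.09 and 9.19 (HR3), 9.24, 9.46 and 9.10 (LR3), 8.82, 8.81 and 8.64 (HR7) and 8.85, 8.77 and 8.80 (LR7). The days were separate. It fell by 0.42 over both (adjusted p = 0.000964) and passed in HR (-0.39) and in LR (-0.46). DDX47, DDX55 and DDX56 fell by 0.27, 0.30 and 0.24, the last with an adjusted p of 0.0498, at the edge of the threshold. The other DDX55 probe set, below the level filter, changed by -0.03 in HR and 0.87 in LR. DDX24, DDX31, DDX50 and DDX52 were not called, with changes over both of their brightest probe sets between -0.15 and 0.03.

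Other helicases of the families moved separately. DHX58, also called LGP2, regulates the sensors of viral RNA and was the only tested member of that class. It read 8.05, 7.97 and 7.87 (HR3), 7.92, 8.06 and 8.35 (LR3), 8.74, 8.44 and 8.36 (HR7) and 8.62, 8.47 and 8.53 (LR7). The days did not overlap, though LR3 pool 3 came within 0.01 of the lowest day 7 pool. The rise was 0.49 ± 0.09 over both (SE, adjusted p = 0.00153). DHX58 was the only member called as higher at day 7 both in HR (0.55) and in LR (0.43). The neutrophil and macrophage marker sums, given above, were higher on the same arrays, and their part in this rise was not tested.

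DHX30, which serves the mitochondrial ribosome, fell by 0.55 over both (adjusted p = 0.00326) and passed in HR (-0.67) but not in LR (-0.44, adjusted p = 0.0763). DHX40 and DHX32, helicases with less settled roles, fell by 0.38 and 0.28, both passing in HR only. DHX9, DHX29, DHX36 and DDX1, of export, translation and decay, were not called and lay between -0.12 and 0.18.

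DDX19A and DDX19B, a pair of similar paralogs that release mRNA at the nuclear pore, were called in opposite directions. DDX19A fell by 0.28 over both (adjusted p = 0.00313, days separate). DDX19B changed by 0.55 (adjusted p = 0.0139) from 6.43, 6.97 and 6.90 (HR3) or 5.82, 6.71 and 6.40 (LR3) to 7.29, 6.90 and 6.92 (HR7) or 7.33, 6.95 and 7.15 (LR7), and the days overlapped. In the cattle RefSeq annotation (ARS-UCD2.0) the genes lie next to each other with 1 annotated gene between them, and their probe sets carry the same cluster number. Which of the paralogs each probe set reads is therefore uncertain.

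**Figure D3:**
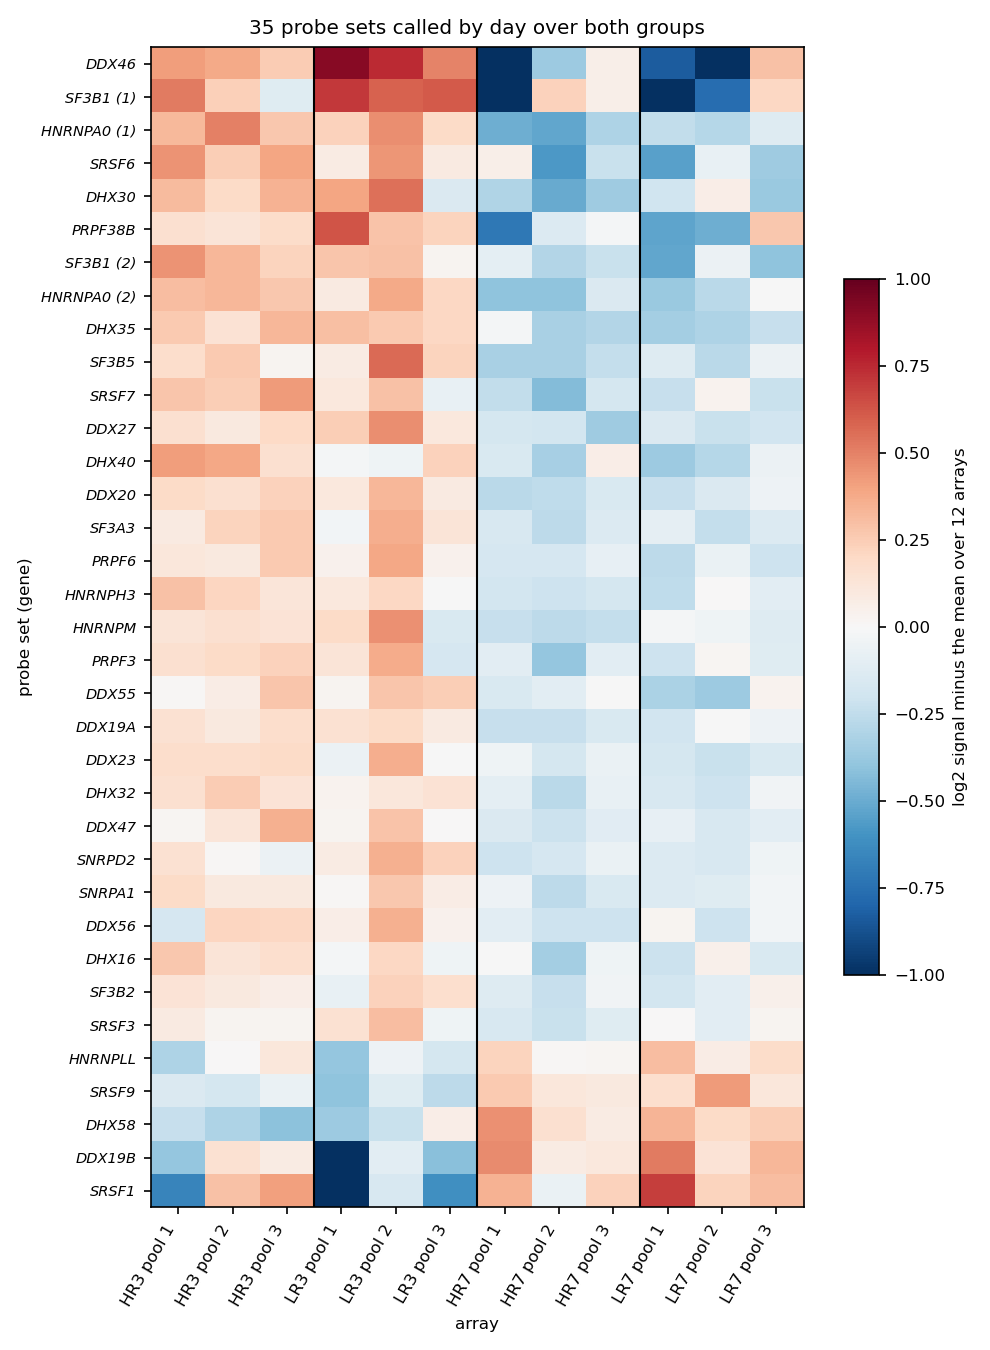
Log2 signal minus its mean over the 12 arrays (colour, limited to -1 and 1) for the 35 probe sets called over both groups, ordered by their change from day 3 to day 7. Columns are arrays by group, and repeated genes are numbered in order of change. The 30 probe sets that fell are red at day 3 and blue at day 7 with few exceptions, and the dark blue cells of DDX46 and of the first SF3B1 probe set lie in HR7 pool 1, LR7 pool 1 and LR7 pool 2.

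Within HR alone, 16 tested probe sets fell and 1 rose, where 12.7% of all tested probe sets fell, 12.1% rose and 24.8% were called. The falls, at 15.5%, were near the background, and the rises, at 0.971%, were below it. The median was -0.15 against -0.03. Without HR7 pool 2 the count of 17 dropped to 8, and the share of all tested probe sets in that fit is not given here.

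Within LR alone, 13 fell and 6 rose, where 13.0% of all fell, 13.4% rose and 26.5% were called. The median was -0.09 against -0.04. Besides SRSF9, DHX58, DDX19B and the HNRNPLL probe set, the rises were 2 secondary probe sets of SRSF1. This balance depended on single pools, since 6 rose and 4 fell without LR3 pool 2, and 1 rose and 12 fell without LR3 pool 1. The count of 19 was 10 with the pool number as a block within the compared groups, 10 without LR3 pool 2, 4 without LR7 pool 1, 9 without LR7 pool 2 and 7 where LR3 and LR7 alone were fitted. The shares of all tested probe sets in these fits are not given here. With limma the count was 0 once the 5′ to 3′ difference of a spiked control transcript was a covariate, although 15 had an unadjusted p below 0.05. In that fit 2.69% of all tested probe sets were called in LR, and the median SE of the members' changes was 0.18 in place of 0.12.

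That difference separated LR3 from LR7. For the dap control it was -2.83, -2.42 and -2.59 in LR3 and -1.45, -1.28 and -1.76 in LR7 (log2, 5′ minus 3′ probe sets), against -2.64, -1.53 and -1.37 in HR3 and -2.36, -1.86 and -1.54 in HR7. For the bovine eIF-4E control it was -4.06, -3.53 and -3.96 in LR3 and -3.03, -3.24 and -3.10 in LR7. In these controls LR3 carried less 5′ relative to 3′ signal than LR7. The second dap pair separated LR3 from LR7 in this direction as well. So did thr, at -3.34, -3.13 and -3.42 in LR3 and -2.02, -2.51 and -2.27 in LR7. Bovine ef1a did too, at 0.67, 0.82 and 0.24 in LR3 and 1.42, 1.19 and 0.98 in LR7. The second thr pair overlapped, with means of -3.80 and -3.07. The spiked lys control went the other way without overlap, at -0.33, -0.12 and -0.20 in LR3 and -1.0, -1.15 and -0.65 in LR7, and bovine actin did so in its means (-0.06 and -1.05), while bovine gapd overlapped. The spiked phe control overlapped, with means of -0.96 in LR3 and -1.09 in LR7. The controls thus did not share 1 direction. With the dap covariate the count in HR was 16 of 103, where 24.3% of all tested probe sets were called. Over both groups it was 23 of 103, of which 21 were lower, where 30% of all were called. The part of this covariate in the LR changes cannot be told apart from the day, because LR3 and LR7 did not overlap in it.

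The changes in HR and in LR, which share no array, had the same sign in 86 of the 103 probe sets (83.5%, against 82.6% of all tested). Across these probe sets, which are not independent, Pearson's r between the changes was 0.76 and Spearman's rho 0.78 (0.88 and 0.84 over all 11980). Probe sets called in the same direction in both groups numbered 9, or 8.74%, against 17.1% of all tested. They were 2 of HNRNPA0 and 1 each of SRSF6, SF3B1, SF3B5, DHX35, DDX27 and DDX20, all lower at day 7, and that of DHX58, which was higher.

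**Figure D4:**
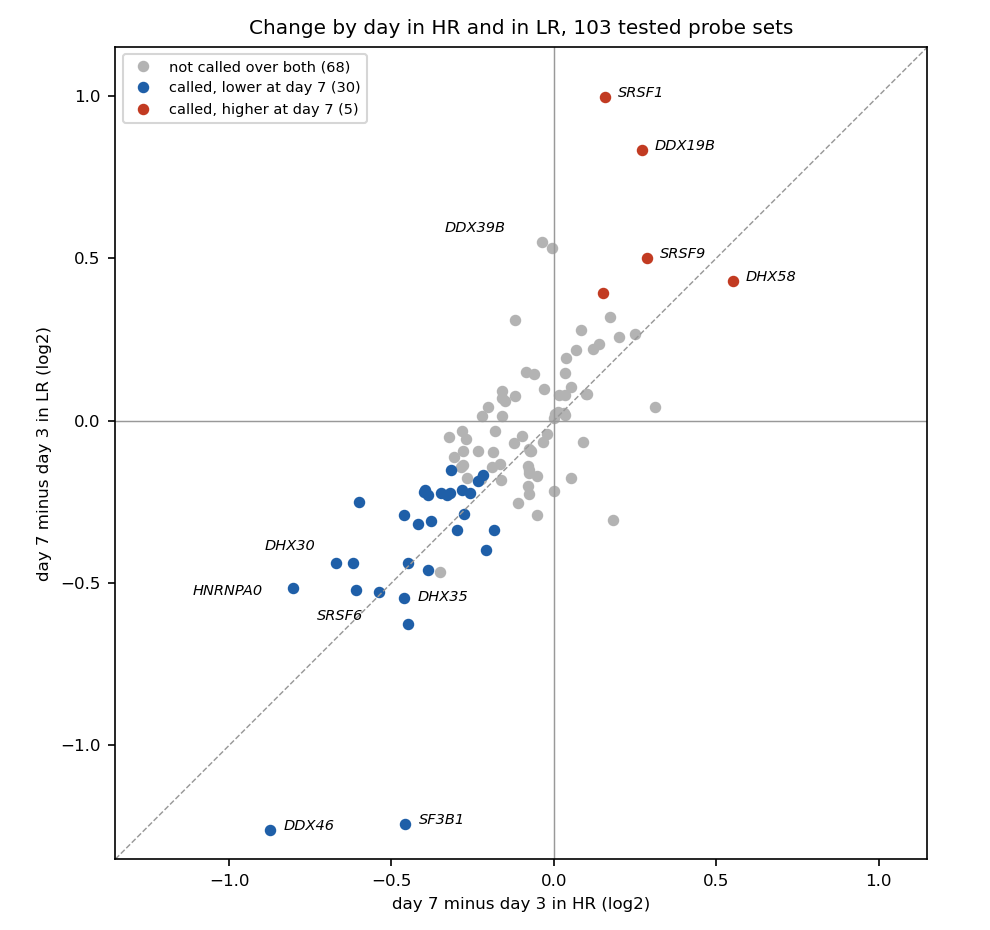
Change from day 3 to day 7 (log2) in HR (horizontal) and in LR (vertical) for the 103 tested probe sets, coloured by the call over both groups, with the dashed line marking equal change. Most points lie along the line below 0 on both axes, whereas probe sets of SRSF1, DDX19B and DDX39B lie above it, with changes in LR of 1.0, 0.83 and 0.55.

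The question of the receptivity comparison is whether these transcripts differed between animals that later carried an embryo and those that did not. No tested probe set was called at either day. At day 3, limma called 0 of 103 members, and 0% of all probe sets. At an unadjusted p below 0.05 there were 7 (6.80%) with limma and 6 with an ordinary linear model, where 7.22% of all tested probe sets passed. At day 7, limma again called none of the members, and 0.025% of all probe sets. None had an unadjusted p below 0.05 with limma and 1 with the ordinary model, where 3.58% of all passed with limma. The ordinary model also called none after adjustment on either day. The median difference of HR minus LR was 0.05 at day 3 and -0.04 at day 7, against 0.01 and 0.00 for all tested probe sets.

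The brightest probe set with the lowest p at day 3 was that of DDX39B, also known as UAP56, which helps U2 join the branch site and hands mRNA to the export machinery. It read 9.44, 9.78 and 9.84 in HR3 and 9.26, 9.57 and 8.72 in LR3, so that the groups overlapped. HR was higher by 0.50 ± 0.19 (SE, unadjusted p = 0.0211, adjusted p = 0.643). At day 7 it read 9.62, 9.61 and 9.72 in HR7 and 9.60, 9.91 and 9.69 in LR7, a difference of -0.08. The next higher in HR at day 3 were DHX8 (0.34), SRSF11 (0.32), DDX19B (0.46) and SRSF4 (0.27), and the lower ones SNRPG (-0.34), HNRNPH2 (-0.27), SNRPD2 (-0.19), PRPF38A (-0.29) and SF3B6 (-0.19). SNRPG, an Sm ring protein, read 10.29, 10.07 and 9.91 in HR3 and 10.44, 10.37 and 10.47 in LR3, separate by a small margin (unadjusted p = 0.0292, adjusted p = 0.665).

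At day 7 the lowest unadjusted p among the brightest probe sets was that of HNRNPA0, with HR lower by 0.22 ± 0.11 (SE, unadjusted p = 0.0726, adjusted p = 0.998). The others lower in HR with small p-values were SF3B4 (-0.18), HNRNPM (-0.18), SRSF3 (-0.14) and DDX19A (-0.12), and the higher ones SRSF11 (0.17), DDX50 (0.13), DDX55 (0.13), DHX38 (0.12) and HNRNPK (0.11). Adjusted p-values were 0.998 for all of these.

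Whether the change by day differed between HR and LR was tested as an interaction. It was called for 0 of the 103 and for 0% of all probe sets by limma, and 2 of the 103 (1.94%) had an unadjusted p below 0.05, where 3.46% of all had. With an ordinary linear model 0 were called and 0 had an unadjusted p below 0.05. These 2 were DDX39B, with a change by day of -0.04 in HR and 0.55 in LR (adjusted p of the difference 1.0), and the SRSF1 probe set second in brightness, with -0.01 and 0.53. The dimmest SRSF1 probe set had the largest difference of the 103 (-0.84, unadjusted p = 0.0558). Among probe sets that stand for their gene, DHX8 (-0.43), SRSF7 (-0.35), HNRNPA0 (-0.29) and DDX19B (-0.56) followed on the negative side of the interaction, HNRNPH2 (0.27), SF3B6 (0.22), SNRPG (0.23), HNRNPK (0.16) and SNRPD2 (0.15) on the positive one.

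Probe sets of the same gene did not always move together. Of the 93 genes 30 had several probe sets, and 17 of these had changes over both groups of mixed sign. In SRSF1, an SR protein that takes part in the choice of splice sites, the 3 tested probe sets changed in LR by 0.08, 0.53 and 1.0 in order of falling brightness, and in HR by -0.12, -0.01 and 0.16. The brightest read 10.43, 10.71 and 10.46 in LR3 and 10.60, 10.59 and 10.64 in LR7, within the spread of the pools. The second read 7.94, 8.03 and 7.91 in LR3, below every HR3 pool (8.17, 8.39 and 8.67), and 8.39, 8.82 and 8.26 in LR7. The dimmest read 6.62, 7.46 and 7.01 in LR3 and 8.31, 7.84 and 7.93 in LR7, with no overlap, but 6.96, 7.91 and 8.03 in HR3 and 7.97, 7.55 and 7.85 in HR7. The call for SRSF1 over both (0.58, adjusted p = 0.0331) thus rests on that probe set and not on the brightest (-0.02, adjusted p = 0.838).

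HNRNPA0 gave a comparable picture, since its dimmest probe set, below the level filter, changed by -0.82 in HR and 0.85 in LR where the others fell in both. In HNRNPUL1, 1 of 3 probe sets changed by 0.18 in HR and -0.31 in LR and was lower by 0.55 in HR than in LR at day 3, with the lowest unadjusted p of all members there (0.00726). In LR the dimmer probe sets of a gene, by their median, had a more positive change than its brightest in 21 of the 30 genes, by a median of 0.13. Over all 2913 genes with several probe sets this held for 60.5%, with the same median of 0.13. In HR it held for 18 of the 30, and for 53.7% of all such genes.

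**Figure D5:**
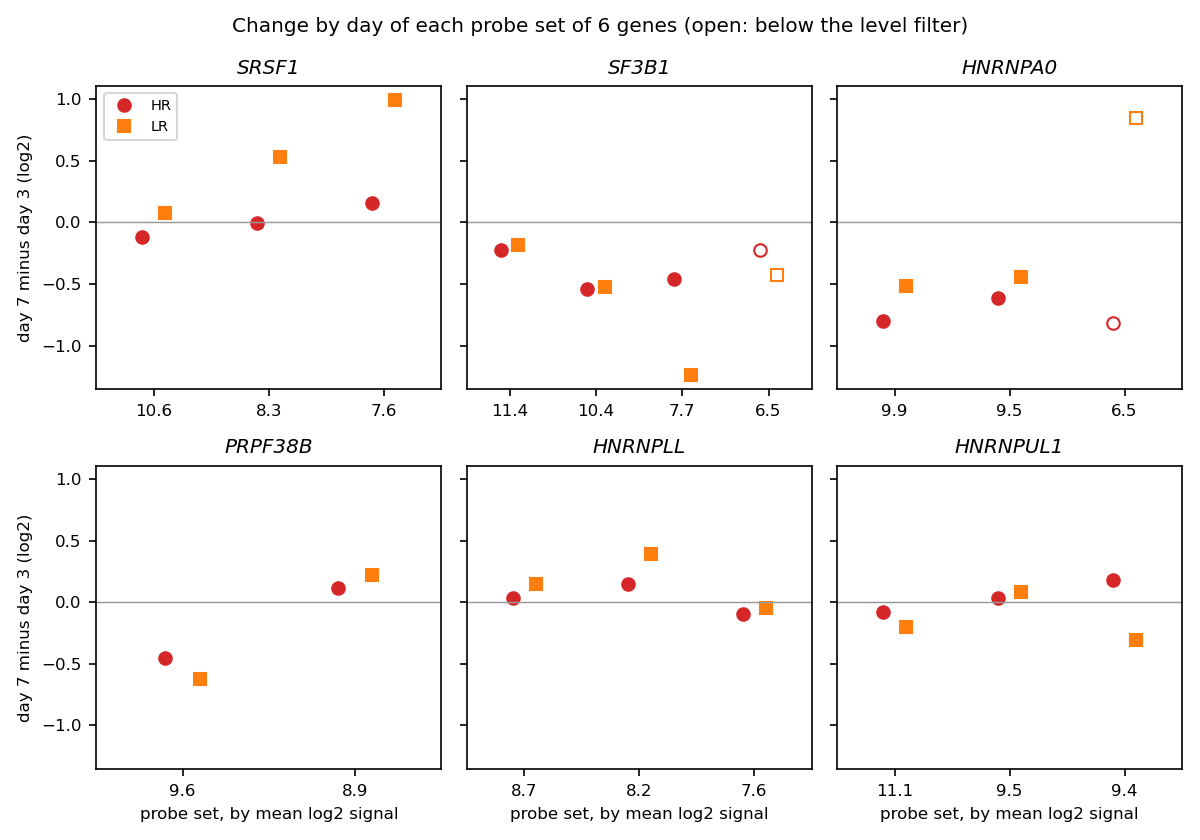
Change from day 3 to day 7 (log2, vertical axis) of every probe set of 6 genes in HR (circles) and LR (squares), the probe sets ordered by their mean log2 signal (horizontal axis labels). Open symbols were below the level filter and not tested. In SRSF1 the LR squares climb from 0.08 to 1.0 as the signal declines, and in HNRNPA0 the dimmest probe set has opposite signs in HR and LR.

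The 33 members below the level filter are a description only. Their median change by day was -0.03 in HR and 0.18 in LR, against -0.05 and -0.04 for all 12036 probe sets below it. Among them are the only probe sets of DDX10, DDX18, DDX21, DDX25, DDX28, DDX41, DHX34 and PRPF39. Of these, DDX18, a nucleolar helicase, had a brightest probe set that was higher in HR than in LR by 0.80 at day 3 and lower by 0.05 at day 7.

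Splicing and helicase genes outside the named families were read from a list of 122 symbols, of which 88 were on the array under that or an older symbol and 84 were tested with their brightest probe set. Of these 21 fell (25%) and 10 rose (11.9%) over both groups, where 24.1% and 20.6% of all tested probe sets did, with a median of -0.07. The largest falls were SRRM2 (-0.48), a spliceosome scaffold of nuclear speckles, SFPQ (-0.46), which binds polypyrimidine tracts, and ACIN1 (-0.44), a component of the exon junction machinery. The largest rises were THOC2 (0.88), of the export complex TREX, CELF1 (0.49), a regulator that binds GU-rich elements, and SYNCRIP (0.38), an hnRNP-like protein. For THOC2 the days overlapped. It passed in HR (1.25, adjusted p = 0.0260) and not in LR (0.52, adjusted p = 0.305), where the LR7 pools read 8.43, 8.48 and 9.96. None of the 84 tested genes was called for receptivity or for the interaction. Of the 23 tested splicing regulators and kinases 4 rose (17.4%) and 5 fell (21.7%). Of the 33 genes of the spliceosome and splicing complexes 2 rose (6.06%) and 9 fell (27.3%). Among 21 snRNP and Sm-like proteins 3 rose (14.3%) and 7 fell (33.3%), and among 7 other RNA helicases 1 rose (14.3%) and none fell.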

How the data were processed

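Endometrial RNA pools, 3 for each of the 4 groups, were measured on Affymetrix Bovine Genome Arrays. Per the labels and methods, the authors scanned the arrays with GCOS (version 1.1.1) and computed signals with PLIER in Expression Console, and the deposited values are log2 signals (0 to 14.07, array medians 6.64 to 6.77). The table holds no detection calls, and precision is limited by the array number. Genes were named from the platform annotation, in which 13292 probe sets carry 1 symbol, 86 several and 10638 none. The 134 members with 1 symbol matched RefSeq by gene ID. No coordinates are given because no genome build is named for the array's annotation, and RefSeq (ARS-UCD2.0) served for names and neighbouring genes.

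All 12 arrays were fitted with limma 3.58.1 (R 4.3.3), with 1 mean for each group and moderated variances, and 6 comparisons were drawn. The study's filter on SD (0.2) was an alternative, because it removes genes that do not vary. In place of the study's filter on present calls, it was joined with a condition on level that uses the groups. Every array of some group had to lie above its array median. Together these conditions left 38 members and 7336 of all probe sets. The fit was tested on simulated data. Pool numbers recur in the titles. Residuals of same-numbered pools correlated at 0.21, 0.20 and 0.51 between LR3 and LR7 and at 0.12, 0.11 and 0.42 between HR7 and LR7. They correlated at 0.12, 0.12 and -0.04 between HR3 and HR7 and at -0.10, -0.07 and -0.45 between HR3 and LR3. For pools of different numbers the values ran from -0.42 (LR7 pool 1 with HR7 pool 3) to 0.36 (LR3 pool 1 with HR7 pool 2). A block by number was an alternative.

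For day, genes were named from those called in HR and in LR, for receptivity and the interaction by the 5 lowest p-values in each direction, and in each role group by the largest rise and fall. Probe sets that disagreed and DDX46 were added. Members, role groups, markers and the list of other genes were chosen with earlier results of these data known.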

Additional observations from a re-analysis of the deposited data

How the results depend on the processing

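Over both groups, 30 to 36 of the 103 tested members were called when any 1 pool was left out. With the dap control as a covariate the count was 23, where 30% of all tested probe sets were called. In the main fit 44.7% of all tested probe sets were called over both, 24.8% in HR and 26.5% in LR. For left-out pools and most other alternatives the share of all is not given here, so the counts below describe the members alone. The other alternatives gave 24 (of the 38 members left by the filter like that of the study) to 42, with falls outnumbering rises in each. The 5 rises became 3 without LR3 pool 1 and 8 without LR3 pool 2. In HR, 10 were called without a filter and 8 to 23 with 1 pool left out, the lowest without HR7 pool 2. In LR, 6 were called without a filter, 7 with LR3 and LR7 fitted alone, 10 with the pool number as a block within these groups, 0 with either pair of dap control probe sets as a covariate and 4 to 18 with 1 pool left out, the lowest without LR7 pool 1. The block over all 12 arrays gave 32 over both, 16 in HR and 15 in LR, and neither block by pool number changed a receptivity call. For receptivity and the interaction 0 members were called under every alternative, left-out pools included. The block within the compared groups and the second dap pair were chosen after seeing the data.

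Of 1140 values of the 51 named results under the alternatives, 1126 kept their direction and side of the threshold. The named results for receptivity and the interaction were called under no setting, so for them mainly the direction could change. Those for day were scored over both groups, and the separate calls in HR and in LR are not among them. DDX19B, PRPF38B, DHX40 and SNRPD2 lost their calls over both with either dap covariate. PRPF4 passed with arrays centred on their medians or without LR7 pool 1, and DDX39B without LR3 pool 2. The sign turned in 3: PRPF38A at day 3 (0.09) and the interaction of SNRPG (-0.024) with the second dap pair, and DDX59 over both (-0.013) without HR3 pool 3, where leaving out other pools gave up to 0.084. The cause was not tested.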
